A study of Mus musculus with 4 samples.

Results

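The clustered histone genes are the replication-dependent histone genes that lie side by side in a few blocks of the mouse genome. The members were all protein-coding genes of the deposited table whose symbol starts with Hist1h, Hist2h, Hist3h or Hist4h, which gave 67 of 54532 genes. They comprised 6 linker genes (H1) and 61 core genes, of which 18 encode H2A, 18 encode H2B, 12 encode H3 and 13 encode H4. A further 3 genes with such symbols had another biotype and were not members. The libraries were bulk RNA-seq libraries of mouse tumour-associated macrophages, with 2 libraries labelled MK-8931 and 2 labelled control. MK-8931, or verubecestat, is an inhibitor of the beta-secretase BACE1. All libraries share the label "GBM mice" as strain, xenografts as tissue source and sorted macrophages as cell type, and no animal age or allele is stated. Per the series' design text, cells positive for CD45 and CD11b and negative for Gr1 and DAPI were sorted from dissociated glioblastoma (GBM) xenografts. The protocol fields instead describe glioma stem cells treated for 3 days with MK-8931 or vehicle and RNA taken from those cells, so the groups follow the titles, and the route by which macrophages met the compound is not clear from them. No label ties a library to an animal of its own, and p-values therefore measure only the spread between these libraries.

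Nucleosomes are built of pairs of the 4 core histones with DNA wrapped around them, and H1 binds where the DNA enters and leaves and helps to compact the fibre. Most clustered histone genes have no introns and are transcribed in S phase, when newly copied DNA has to be packaged. Their messenger RNA normally ends in a stem-loop bound by SLBP in place of a poly(A) tail, and it is degraded when DNA synthesis stops. Some of these genes also have a poly(A) signal further downstream, which is known to be used in cells that have left the cycle or differentiated. Macrophages in tumours can divide locally, and they also express replication-independent histone variants from genes outside the clusters.

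The members' 3′ ends are shown first because the stem-loop is the element that marks this family, and because members differ in how far their annotated transcripts run past it. A stem-loop was searched for in the annotated GRCm38 transcripts after the stop codon, as 16 bases that form the conserved stem and loop, and it was found in 46 of the 67 members. The most frequent form, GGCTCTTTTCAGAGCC, occurred in 26 genes, 3 of them H1, 10 H2A, 8 H2B and 5 H3. Among the H4 genes, 7 had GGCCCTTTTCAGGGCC, in which a base pair of the stem is changed. The lines give, on the transcribed strand, the element in capitals with its flanks for Hist1h1c (chr13:23739507-23739532, plus strand), Hist1h1d (chr13:23555782-23555807, plus), Hist1h1e (chr13:23621777-23621802, minus), Hist1h4i (chr13:22040961-22040986, minus) and Hist2h4 (chr3:96262934-96262959, minus).
Hist1h1c: gene_name  what     
Hist1h1c   stem-loop    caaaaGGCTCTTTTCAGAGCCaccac
Name: sequence, dtype: object
Hist1h1d: gene_name  what     
Hist1h1d   stem-loop    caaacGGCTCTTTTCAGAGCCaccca
Name: sequence, dtype: object
Hist1h1e: gene_name  what     
Hist1h1e   stem-loop    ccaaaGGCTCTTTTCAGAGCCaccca
Name: sequence, dtype: object
Hist1h4i: gene_name  what     
Hist1h4i   stem-loop    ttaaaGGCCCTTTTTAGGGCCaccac
Name: sequence, dtype: object
Hist2h4: gene_name  what     
Hist2h4    stem-loop    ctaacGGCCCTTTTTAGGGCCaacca
Name: sequence, dtype: object

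The Hist1h1c stem-loop began 24 bases after the stop codon, and the annotated transcript of 1560 bases ran on for 840 bases past it. It ended with a poly(A) signal, AATAAA, 26 bases from the end. The lines show the poly(A) signals, in capitals, of Hist1h1c (chr13:23740336-23740359, plus strand), of Hist1h4i, whose signal is the variant ATTAAA (chr13:22040639-22040662, minus), and of Hist2h2be, in which no stem-loop was found (chr3:96223711-96223734, plus).
Hist1h1c: gene_name  what          
Hist1h1c   poly(A) signal    gcttctAATAAAaagcgtttagtt
Name: sequence, dtype: object
Hist1h4i: gene_name  what          
Hist1h4i   poly(A) signal    gtttacATTAAAagtattctatgc
Name: sequence, dtype: object
Hist2h2be: gene_name  what          
Hist2h2be  poly(A) signal    attattAATAAAgttaccgattag
Name: sequence, dtype: object

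Promoter sequences from RefSeq (GRCm38.p6), running from 250 bases before to 50 bases after the gene's start, were matched to 61 of the 67 members. The motifs were searched on both strands, and a match describes letters only. CCAAT, the box bound by NF-Y, was in all 6 H1, 17 H2A, 16 H2B and 10 H3 promoters and in 3 of 12 H4 promoters, against 37.4% of all 32851 promoters. The H1 box AAACACA was in 5 of 6 H1 promoters, 2 H2A and 2 H2B promoters, against 7.18% of all. The octamer ATTTGCAT, bound by OCT1, was in 7 of 17 H2A and 7 of 16 H2B promoters and in no other member, against 1.74% of all. GGTCCG, the core of the element bound by the H4 regulator HINFP, was in 11 of 12 H4 promoters, 1 H2B and 1 H3 promoter, against 8.25% of all. TATAAA was in 35 of the 61 and in 13.6% of all, and overlaps between motifs were kept. The lines show these motifs in capitals for Hist1h1c (chr13:23738557-23738856, plus strand, listed by RefSeq as H1f2), Hist1h1e (chr13:23622509-23622808, minus, H1f4), Hist1h2bg (chr13:23571150-23571449, plus, H2bc8) and Hist1h4i (chr13:22041313-22041612, minus, H4c9), chosen to show an example of each arrangement.
Hist1h1c: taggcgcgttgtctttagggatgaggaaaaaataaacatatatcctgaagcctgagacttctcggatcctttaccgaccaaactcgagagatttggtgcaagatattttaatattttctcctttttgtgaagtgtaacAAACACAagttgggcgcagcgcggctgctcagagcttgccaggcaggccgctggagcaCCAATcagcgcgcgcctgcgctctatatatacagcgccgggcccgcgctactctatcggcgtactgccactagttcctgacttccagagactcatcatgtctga
Hist1h1e: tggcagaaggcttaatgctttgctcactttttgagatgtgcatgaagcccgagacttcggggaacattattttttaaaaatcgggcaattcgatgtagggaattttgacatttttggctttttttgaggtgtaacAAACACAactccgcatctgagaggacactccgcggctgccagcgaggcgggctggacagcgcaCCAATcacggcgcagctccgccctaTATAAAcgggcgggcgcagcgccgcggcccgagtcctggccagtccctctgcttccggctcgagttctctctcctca
Hist1h2bg: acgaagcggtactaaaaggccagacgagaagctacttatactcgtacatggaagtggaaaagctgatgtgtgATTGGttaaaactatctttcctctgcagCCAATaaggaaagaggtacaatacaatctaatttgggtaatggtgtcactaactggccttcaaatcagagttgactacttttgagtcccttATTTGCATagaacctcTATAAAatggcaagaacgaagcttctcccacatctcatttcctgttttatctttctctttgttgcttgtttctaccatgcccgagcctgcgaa
Hist1h4i: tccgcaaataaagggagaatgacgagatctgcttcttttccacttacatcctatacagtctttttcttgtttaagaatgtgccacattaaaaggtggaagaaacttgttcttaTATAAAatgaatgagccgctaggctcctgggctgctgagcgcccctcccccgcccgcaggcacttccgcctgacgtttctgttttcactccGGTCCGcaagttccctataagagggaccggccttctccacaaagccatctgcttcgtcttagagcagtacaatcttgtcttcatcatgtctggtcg

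The H1 box starts at -112 and the CCAAT box at -54 from the start site in Hist1h1c, and at -115 and -52 in Hist1h1e. In Hist1h2bg, the capitals ATTGG are CCAAT on the other strand. The sequences of Hist1h1c and Hist1h1e thus hold this pair of boxes at nearly the same spacing, although the genes' levels were far apart. Hist1h1e also holds TATAAA, at -27, and these letters are not in the window of Hist1h1c. That window does hold TATATATA, and such variant forms were not searched for.

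Library totals were 19325817 and 18257930 counts in the MK-8931 group and 18389023 and 20179875 counts in the control group, and a floor of 3 counts corresponded to between 0.149 and 0.164 CPM, counts scaled to library size. Raw counts were tested with edgeR's quasi-likelihood test over 13932 genes that passed a filter on low counts, with Benjamini-Hochberg adjustment over all of them and a threshold of 0.05. Of these genes, 139 were called (0.998%), 120 of them higher (0.861%) and 19 lower with MK-8931 (0.136%). The median log2 fold change of all genes tested was -0.00297. Macrophage markers were high in all libraries, with summed levels of 12000 and 12300 CPM in the MK-8931 libraries and 13100 and 16400 CPM in the control libraries. Of 14 such markers, edgeR called 1 (Itgam, which encodes CD11b) higher with MK-8931 and none lower, 6 had an unadjusted p under 0.05, and DESeq2 called 3 and limma-voom 1. The median log2 fold change of these markers was -0.14, with 11 of the 14 below 0. Among 16 neutrophil markers, 9 of the 11 tested were higher with MK-8931. Their summed level was 579 and 968 CPM in the MK-8931 libraries and 87.5 and 86.6 CPM in the control libraries, with Elane at 0 in all 4. The red cell and platelet list held 2 higher genes of 4 tested, with sums of 335 and 430 CPM with MK-8931 and 168 and 176 CPM in controls. Lymphocyte, brain and tumour, and vascular lists held no called gene in edgeR of 2, 3 and 9 tested, with 1, 2 and 3 at an unadjusted p under 0.05, and DESeq2 called 0, 1 and 1 of them and limma-voom none.

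Clustered histone genes were a small part of the measured RNA, and Hist1h1c held most of it. The 67 members together took 0.0203% and 0.0211% of all counts in the MK-8931 libraries and 0.0298% and 0.0324% in the control libraries. Hist1h1c supplied 79.9% and 76.1% of the members' counts with MK-8931 and 82.2% and 83.6% in controls. In all, 56 members had at least 1 count, with 44 and 48 detected in the MK-8931 libraries and 52 in each control library. The largest block, 54 genes on chromosome 13 between 21715763 and 23934851, had 49 genes with counts, and the block of 10 genes on chromosome 3 between 96219865 and 96270132 had 4. Both members on chromosome 11 and the single member on chromosome 6 had counts. The remaining 11 members were at 0 in every library. These were Hist1h2aa, Hist1h2af, Hist1h2ap, Hist1h2ba, Hist1h4b, Hist2h2aa1, Hist2h2aa2, Hist2h2ab, Hist2h2bb, Hist2h3b and Hist2h3c1. Hist1h2aa and Hist1h2ba encode the testis-specific H2A and H2B. Hist1h2af, Hist1h2ap, Hist1h4b, Hist2h2aa1, Hist2h2aa2 and Hist2h3b share most of their 50-base stretches with other members. Hist2h2bb and Hist2h3c1 overlap another listed gene on the same strand, while Hist1h2aa, Hist1h2ba and Hist2h2ab have neither limit. How reads that match several genes were counted is not given. A count of 0 in a gene with such a limit, some of them on chromosome 3, therefore does not show absence. Whether the libraries were selected for poly(A) is not given in the sources used here, so low counts do not show how much histone messenger RNA without a tail the cells held.

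The filter kept 28 members, 5 linker and 23 core genes. A member that passed only because it was high in 1 group had to differ between the groups, so the counts of tested members below describe those genes and not the family.

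Hist1h1c, which encodes the linker histone that RefSeq lists as H1f2, was the only member that passed the test, and it was lower with MK-8931. The gene (ENSMUSG00000036181, GRCm38 chr13:23738808-23740367, plus strand) had 3138 and 2938 counts in the MK-8931 libraries and 4504 and 5465 counts in the control libraries. Per length, its level was 102.5 and 101.6 FPKM (fragments scaled to gene length and library size) with MK-8931 and 154.6 and 179.5 FPKM in controls. The MK-8931 libraries lay close together and both were below both controls, which differed more from each other. Mean levels were 160.2 ± 0.865 CPM with MK-8931 and 260.6 ± 25.9 CPM in controls (SD, n = 2 each). The fitted level with MK-8931 was 61.5% of that in controls, a log2 fold change of -0.70 (SE 0.13, edgeR adjusted p = 0.0460). By p, Hist1h1c stood at rank 135 of the genes tested, near the end of those called. The 1 linker gene called lower, of 5 tested, stands beside 0.136% of all genes tested called lower. By count it ranked 1259 and 1220 among all genes in the MK-8931 libraries and 750 and 639 in the control libraries. The authors' deposited table gave a log2 fold change of -0.71 and an adjusted p of 4.86e-04, and it called 0.420% of its 22381 genes lower. In bulk samples, fewer cells that express a gene and less RNA per cell cannot be told apart. The neutrophil and red cell markers that were higher with MK-8931 moved with this difference, and their part in it was not tested.

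The direction of Hist1h1c was the same in all 10 alternatives, with log2 fold changes between -0.81 and -0.60, but the call was not. It was lost with library sizes in place of TMM factors (edgeR adjusted p = 0.0525), without the first MK-8931 library (0.210), without the second MK-8931 library (0.272) and without edgeR's robust option (0.0517). It was kept without the first control (1.97e-04), without the second control (0.0388), with DESeq2 (4.32e-04), with limma-voom (0.0411), with no filter on low counts (1.49e-04) and with the replicate block (9.78e-04).

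**Figure D1:**
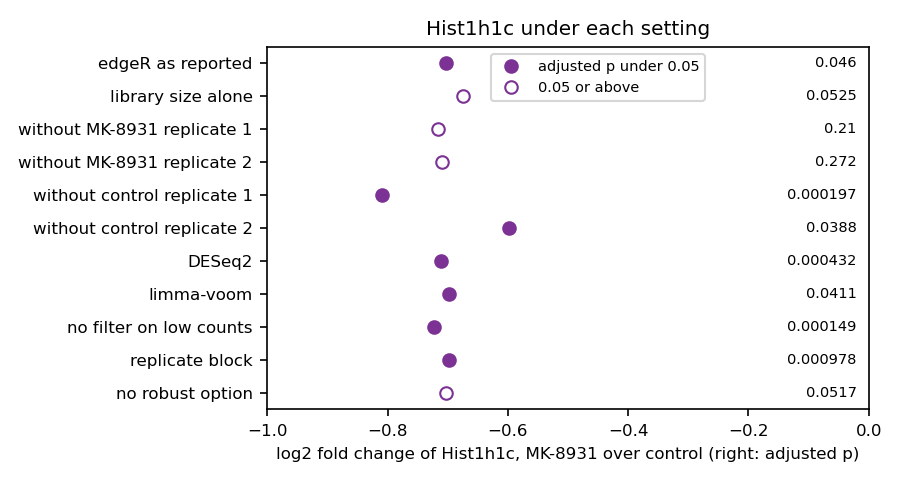
Log2 fold change of Hist1h1c, MK-8931 over control, in the edgeR fit and in each of 10 alternatives, with the adjusted p at the right. Filled points are past the threshold of 0.05, open points are not, and all lie between -0.81 and -0.60.

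The other linker genes were far below Hist1h1c and did not follow it as a group. Hist1h1e had 23 and 108 counts with MK-8931 and 91 and 80 counts in controls. Hist1h1b had 19 and 84 counts with MK-8931 and 27 and 17 counts in controls. In both genes the MK-8931 libraries differed more from each other than the controls did, and the groups overlapped. Hist1h1d had 38 and 50 counts with MK-8931 and 12 and 44 counts in controls, again overlapping once scaled to library size. Hist1h1a had 4 and 8 counts with MK-8931 and 11 and 24 counts in controls, so that both MK-8931 libraries were lower, at counts of 24 or less. Fitted log2 fold changes were -0.35 (SE 0.61) for Hist1h1e, 1.25 (SE 0.74) for Hist1h1b, 0.68 (SE 0.64) for Hist1h1d and -1.50 (SE 0.93) for Hist1h1a, with edgeR adjusted p between 0.632 and 0.912. Hist1h1t, the testis-specific linker gene, had no count with MK-8931 and 2 and 0 counts in controls.

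Summed over the linker genes, the level was 165.1 and 173.1 CPM with MK-8931 and 249.9 and 287.3 CPM in controls, with means of 169.1 ± 5.69 and 268.6 ± 26.5 CPM (SD, n = 2 each). The MK-8931 mean was 63.0% of the control mean, a log2 ratio of -0.67. Without Hist1h1c the sum was 4.30 and 13.6 CPM with MK-8931 and 7.69 and 8.42 CPM in controls, so that the groups overlapped and the MK-8931 mean was 111% of the control mean. The difference in the linker sum was thus that of Hist1h1c.

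**Figure D2:**
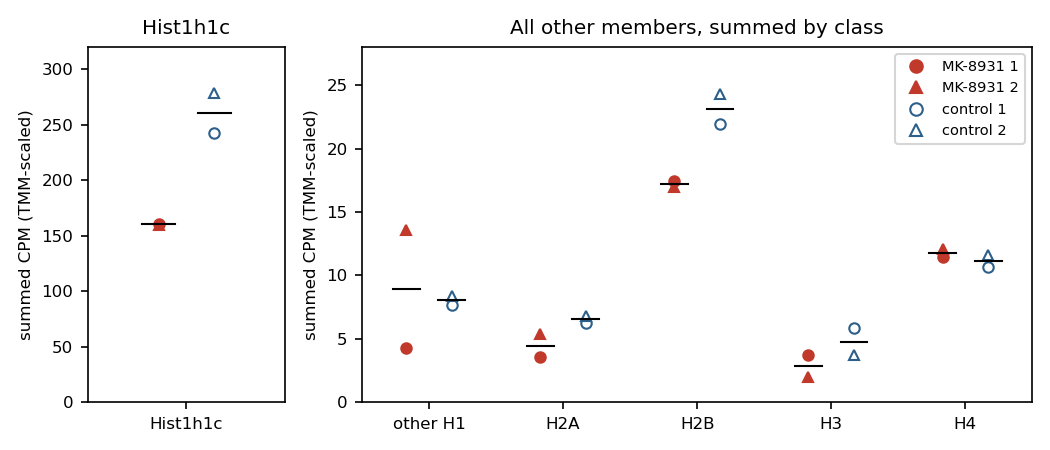
Summed level in TMM-scaled CPM of Hist1h1c (left panel) and of all other members by class (right panel, its own axis), with a point for each library and a bar at the group mean. Both MK-8931 libraries are below both controls for Hist1h1c, H2A and H2B, while the other H1 genes, H3 and H4 overlap.

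Core histone genes were measured at low counts, and none of the 23 tested passed. Their summed counts were 707 and 672 with MK-8931 and 833 and 910 in controls. Scaled to library size these were 36.2 and 36.5 CPM with MK-8931 and 44.8 and 46.4 CPM in controls, and both MK-8931 libraries were lower. The MK-8931 mean of 36.4 ± 0.191 CPM was 79.7% of the control mean of 45.6 ± 1.16 CPM (SD, n = 2 each), a log2 ratio of -0.33 that is given as a description, with no test. By class the MK-8931 mean was 68.5% of the control mean for H2A, 74.6% for H2B and 105% for H4. A large part of the difference in the H2B and core sums lay in 1 gene, Hist1h2bc. It averaged 6.97 ± 1.88 CPM with MK-8931 and 11.65 ± 1.79 CPM in controls (SD, n = 2 each). H3 averaged 2.88 ± 1.22 CPM with MK-8931 and 4.79 ± 1.51 CPM in controls (SD, n = 2 each), with overlapping libraries. At an unadjusted p under 0.05, edgeR found 1 of the 23, Hist1h2bc, where 10.8% of all genes tested had such a p. DESeq2 and limma-voom called 0 of the core genes, against 2.80% and 1.11% of all genes they tested. For DESeq2 these are the 12550 genes given an adjusted p, and core genes at low counts may have lacked one. Of the 23, 14 had a log2 fold change below 0 and 9 above, with a median of -0.17. The groups did not overlap in 8 core genes that were lower with MK-8931 and in 3 that were higher. Over all genes tested, 41.2% had groups that did not overlap, 20.0% lower and 21.2% higher with MK-8931.

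**Figure D3:**
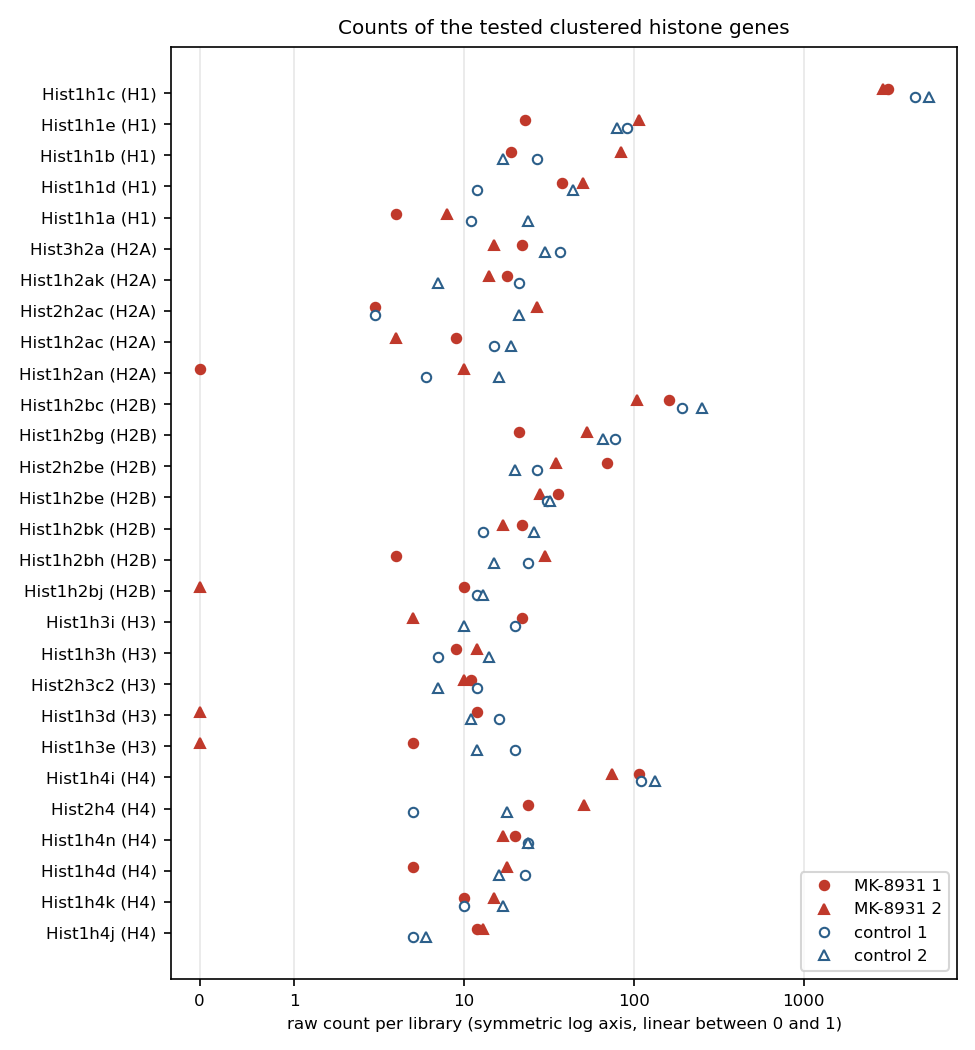
Raw counts per library of the 28 tested members on a symmetric log axis, ordered by class and count, with MK-8931 libraries filled and control libraries open. Hist1h1c lies at 2938 or above in every library, and no other member exceeds 253 counts in any library.

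Among the H2A genes, which encode the partner of H2B in the nucleosome's outer dimers, 5 of 18 were tested. Hist3h2a on chromosome 11 had 22 and 15 counts with MK-8931 and 37 and 30 counts in controls. Hist1h2ac had 9 and 4 counts with MK-8931 and 15 and 19 counts in controls. Both genes were lower in both MK-8931 libraries, with log2 fold changes of -0.85 (SE 0.61) and -1.37 (SE 0.88) that did not pass. Hist3h2a overlaps Trim17 and Hist1h2ac overlaps Gm24991, each on the same strand, so that reads could have been split. Hist1h2an had 0 and 10 counts with MK-8931 and 6 and 16 counts in controls. Hist1h2ak had 18 and 14 counts with MK-8931 and 21 and 7 counts in controls. Hist2h2ac had 3 and 27 counts with MK-8931 and 3 and 21 counts in controls. In these 3 genes the groups overlapped, and the libraries of a group differed by as much as the groups.

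Of the H2B genes, 7 of 18 were tested, and they held the core gene with the most counts. Hist1h2bc (GRCm38 chr13:23684199-23692908, plus strand) had 162 and 104 counts with MK-8931 and 193 and 253 counts in controls, or 7.14 and 4.85 FPKM with MK-8931 and 8.94 and 11.2 FPKM in controls. Both MK-8931 libraries were lower, and the log2 fold change was -0.74 (SE 0.28, edgeR adjusted p = 0.351). That fold is close to the one of Hist1h1c, with a larger error, and the difference between the genes was not tested. Hist1h2bg had 21 and 53 counts with MK-8931 and 78 and 66 counts in controls, and both MK-8931 libraries were lower (log2 fold change -0.94, SE 0.51). Hist2h2be had 70 and 35 counts with MK-8931 and 27 and 20 counts in controls, and both MK-8931 libraries were higher (log2 fold change 1.15, SE 0.54, edgeR adjusted p = 0.513). It shares no 50-base stretch with another member, so exact reads of at least 50 bases could be told from theirs.

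The other H2B genes had fewer counts. Hist1h2bj had 10 and 0 counts with MK-8931 and 12 and 13 counts in controls, and both MK-8931 libraries were lower (log2 fold change -1.31, SE 1.26, edgeR adjusted p = 0.807). Hist1h2bh had 4 and 30 counts with MK-8931 and 24 and 15 counts in controls. Hist1h2bk had 22 and 17 counts with MK-8931 and 13 and 26 counts in controls. In Hist1h2bh and Hist1h2bk the groups overlapped, with log2 fold changes of -0.17 (SE 0.95) and 0.02 (SE 0.71), and the direction was not resolved at this depth. Hist1h2be had 36 and 28 counts with MK-8931 and 31 and 32 counts in controls, and it overlaps Hist1h1e on the same strand, so that reads could have been split between these genes.

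H3 and H4 form the tetramer at the centre of the nucleosome. Of the H3 genes, 5 of 12 were tested. Hist1h3e had 5 and 0 counts with MK-8931 and 20 and 12 counts in controls, both MK-8931 libraries being lower (log2 fold change -2.63, SE 1.25, edgeR adjusted p = 0.516). Hist1h3d had 12 and 0 counts with MK-8931 and 16 and 11 counts in controls. Hist1h3i had 22 and 5 counts with MK-8931 and 20 and 10 counts in controls. In Hist1h3d and Hist1h3i, 1 MK-8931 library was at the level of the controls and the other below it. Hist1h3h had 9 and 12 counts with MK-8931 and 7 and 14 counts in controls. Hist2h3c2 had 11 and 10 counts with MK-8931 and 12 and 7 counts in controls. These showed no separation, with log2 fold changes of 0.02 (SE 0.89) and 0.14 (SE 0.89).

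Of the H4 genes, 6 of 13 were tested, and they differed in direction. Hist1h4i (GRCm38 chr13:22040636-22041362, minus strand) had 107 and 74 counts with MK-8931 and 111 and 133 counts in controls, or 7.50 and 5.49 FPKM with MK-8931 and 8.17 and 9.37 FPKM in controls. It was lower in both MK-8931 libraries, with a log2 fold change of -0.42 (SE 0.30, edgeR adjusted p = 0.717). Hist2h4 (GRCm38 chr3:96261682-96263311, minus strand) had 24 and 51 counts with MK-8931 and 5 and 18 counts in controls. It was higher in both MK-8931 libraries, with a log2 fold change of 1.73 (SE 0.80, edgeR adjusted p = 0.497). Hist1h4j had 12 and 13 counts with MK-8931 and 5 and 6 counts in controls, also higher in both (log2 fold change 1.18, SE 0.93). Hist1h4n had 20 and 17 counts with MK-8931 and 24 in each control, lower in both (log2 fold change -0.37, SE 0.65). Hist1h4d had 5 and 18 counts with MK-8931 and 23 and 16 counts in controls, and Hist1h4k had 10 and 15 counts with MK-8931 and 10 and 17 counts in controls. In Hist1h4d and Hist1h4k the groups overlapped.

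**Figure D4:**
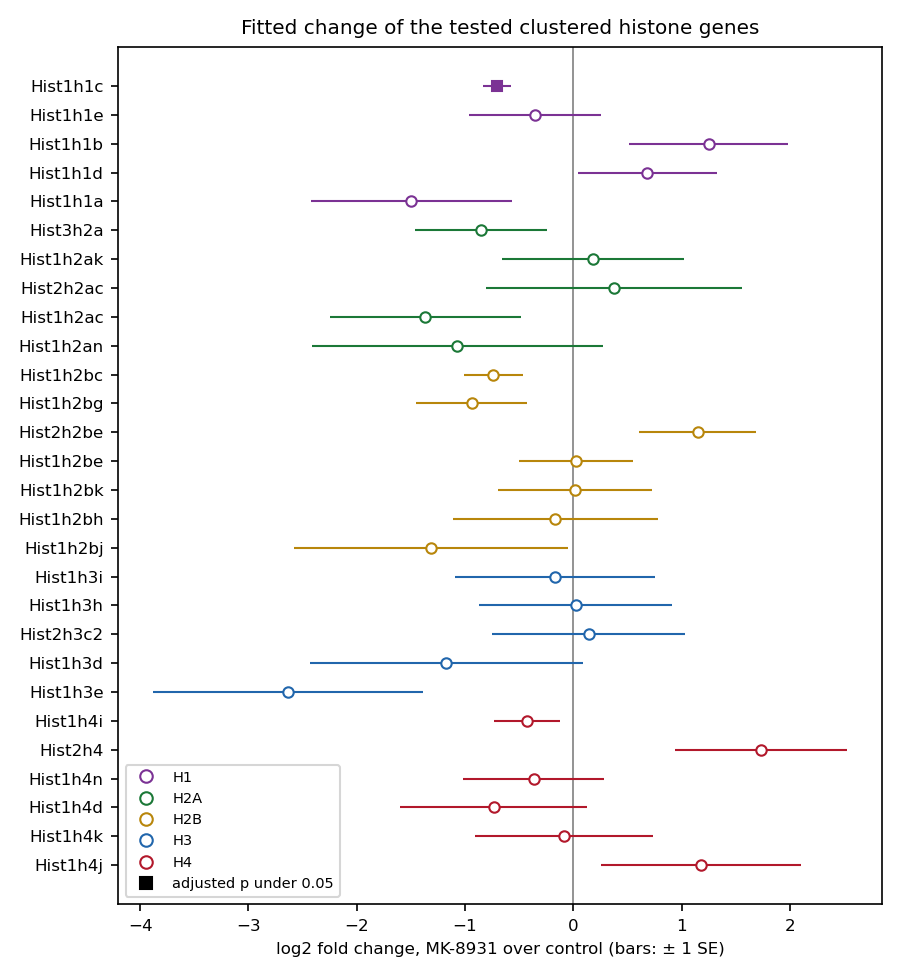
Fitted log2 fold change, MK-8931 over control, of the 28 tested members with bars of 1 SE, coloured by class. Hist1h1c, the filled square at -0.70, has the shortest bar, and the other members are open circles with wider bars on both sides of 0.

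The 39 members that failed the filter, 1 linker and 38 core genes, had at most 16 counts in any library. Those with the highest summed counts were Hist1h4h, Hist1h3a, Hist1h2ai, Hist1h2bl and Hist1h2bm. Hist1h4h had 16 and 7 counts with MK-8931 and 7 and 6 counts in controls. Hist1h3a had 8 and 2 counts with MK-8931 and 15 and 9 counts in controls. Hist1h2ai had 1 and 5 counts with MK-8931 and 16 and 10 counts in controls. Hist1h2bl had 5 and 7 counts with MK-8931 and 9 and 10 counts in controls, and Hist1h2bm had 5 and 14 counts with MK-8931 and 3 and 5 counts in controls. Scaled to library size, both MK-8931 libraries were lower in Hist1h3a, Hist1h2ai and Hist1h2bl and higher in Hist1h4h and Hist1h2bm. These genes were not tested in the main fit, and over all genes tested 41.2% had groups that did not overlap.

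The members were also compared by the annotated ends of their transcripts. In 23 genes the annotated transcript ran more than 100 bases past the stem-loop, as in Hist1h1c and Hist1h4i shown above. These held 90.3% of the members' counts and 15 of them were tested, and a poly(A) signal was found within the last 60 bases in 12. In another 23 genes the transcript ended near the stem-loop, and these held 2.53% of counts, with 4 tested and 2 with a poly(A) signal. In the remaining 21 genes no stem-loop was found, in 13 of them because the annotation gives the coding sequence alone, and these held 7.17% of counts. Median levels per length were 0.515 FPKM for long ends, 0.389 FPKM for ends near the stem-loop and 0.821 FPKM where none was found. These medians lay close together, but FPKM divides by the annotated length, which is longer by definition in the first group. Median counts summed over the 4 libraries were 40 for long ends, 16 for ends near the stem-loop and 31 where none was found. Of the 17887 counts in the first group, Hist1h1c held 16045. Even after scaling to length, Hist1h1c at a mean of 134.5 FPKM over the 4 libraries was far above Hist1h2bc at 8.04, Hist1h4i at 7.63 and Hist1h2bg at 4.65 FPKM. Hist1h1e, with the same stem-loop letters and with an H1 box and a CCAAT box as in Hist1h1c, had a mean of 2.07 FPKM. Because Hist1h1e overlaps Hist1h2be on the same strand, its reads could have been split, and its level is uncertain.

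**Figure D5:**
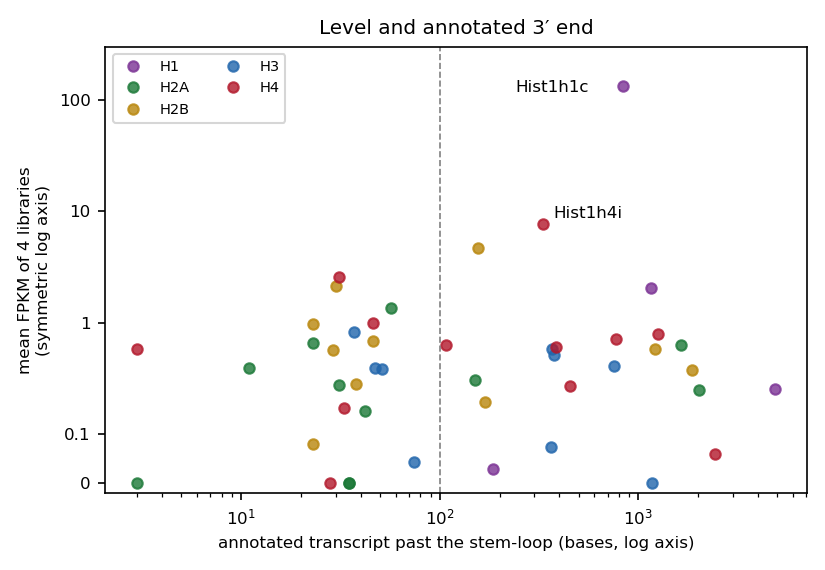
Mean FPKM over the 4 libraries against the number of annotated transcript bases past the stem-loop, for the 46 members with a stem-loop, coloured by class. The dashed line marks 100 bases, Hist1h1c stands apart at 134.5 FPKM with 840 bases past the stem-loop, and genes on both sides of the line are otherwise mostly below 3 FPKM.

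Members share sequence, which limits how their reads can be assigned. The share of a member's 50-base stretches that also occur in another member had a median of 47.0%, and 30 of 67 members shared over 50%. By class the median was 1.1% for H1, 73.0% for H2A, 42.1% for H2B, 57.2% for H3 and 39.5% for H4. Hist1h1c shared 8.54% and overlaps no other listed gene. In contrast, Hist1h3h shared 93.9%, Hist1h3i 87.6% and Hist1h2an 85.8%, and the values of such genes are uncertain. In all, 24 members, 7 of them tested, overlap another listed gene, and whether the counting used strand is not given in the sources used here.

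Genes that make, process and use histone messenger RNA were then described from lists, none of which held a called gene in edgeR. Of 18 genes for transcription and 3′ processing of histone RNA, all were tested, 3 had an unadjusted p under 0.05 and the median log2 fold change was 0.08. Sympk, the scaffold of the cleavage complex, had 127.5 and 130.1 CPM with MK-8931 and 100.8 and 89.8 CPM in controls. Ncbp2, a subunit of the nuclear cap-binding complex, had 24.4 and 23.7 CPM with MK-8931 and 13.9 and 18.9 CPM in controls. Both were higher in both MK-8931 libraries, with log2 fold changes of 0.43 (edgeR adjusted p = 0.227) and 0.55 (0.343). DESeq2 and limma-voom called none of the 18, and the fit with the replicate block called Sympk (log2 fold change 0.44, adjusted p = 0.0230).

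Of 15 genes for histone RNA decay, 13 were found by symbol and tested, 1 had an unadjusted p under 0.05 and the median log2 fold change was 0.06. Upf1, the helicase that starts this decay, had 146.5 and 141.4 CPM with MK-8931 and 123.7 and 110.0 CPM in controls (log2 fold change 0.30, edgeR adjusted p = 0.446). Lsm2, a subunit of the ring that binds the oligouridylated end, had 12.3 and 13.6 CPM with MK-8931 and 16.6 and 16.2 CPM in controls (log2 fold change -0.34, edgeR adjusted p = 0.613). Of 25 histone chaperone genes, all were tested, none had an unadjusted p under 0.05 and the median was -0.01. Rbbp7, which binds H4, had a log2 fold change of -0.29 (edgeR adjusted p = 0.472) and Anp32e, which removes an H2A variant from chromatin, one of -0.27 (0.533). DESeq2 and limma-voom called none in either list.

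Replication-independent histone genes gave far more counts than the clustered core genes. Of 16 listed, 11 were tested, 2 had an unadjusted p under 0.05 and the median log2 fold change was -0.17. H3f3b, which encodes a variant H3 deposited outside S phase, had 998.3 and 1061 CPM with MK-8931 and 1386 and 1590 CPM in controls. Both MK-8931 libraries were lower, and the log2 fold change was -0.53 (SE 0.13, edgeR adjusted p = 0.125). It was called with DESeq2 (adjusted p = 0.00864), with no filter on low counts (0.00869), with the replicate block (0.00431) and without the first control (0.00167), and limma-voom called none of the list. Cenpa, the centromeric H3, had 41.2 and 45.2 CPM with MK-8931 and 51.4 and 64.3 CPM in controls (log2 fold change -0.42, edgeR adjusted p = 0.379). Per length, H3f3b had a mean of 421.8 FPKM over the 4 libraries, H2afz 124.3, H3f3a 62.4 and H1f0, a linker gene outside the clusters, 59.96 FPKM. The last 3 were chosen after their values were seen, and Hist1h1c at 134.5 FPKM lay above them.

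Genes of S phase and proliferation were expressed in all libraries. Of 34 listed, all were tested, none had an unadjusted p under 0.05 in edgeR, DESeq2 and limma-voom called none, and the median log2 fold change was -0.04. Of the 34, 27 had a log2 fold change below 0, where 50.4% of all genes tested did. Pcna, the sliding clamp of DNA polymerase, had 177.4 and 197.3 CPM with MK-8931 and 196.9 and 264.0 CPM in controls (log2 fold change -0.30, edgeR adjusted p = 0.583). Mcm3, a subunit of the replicative helicase, had 139.8 and 132.6 CPM with MK-8931 and 152.5 and 161.9 CPM in controls (log2 fold change -0.21, edgeR adjusted p = 0.639). Mki67, a marker of cycling cells, had 366.4 and 281.1 CPM with MK-8931 and 371.2 and 281.6 CPM in controls, and it was chosen after its values were seen. Without the first control, Pcna was called lower with MK-8931 (log2 fold change -0.50, edgeR adjusted p = 0.0433).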

How the data were processed

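Gene counts were read from 4 bulk RNA-seq libraries of mouse macrophages, 2 MK-8931 and 2 control. The deposited raw counts, named so in the file headers, are whole numbers. The authors' FPKM values equal the count divided by gene length times a constant per library. The authors' deposited table also gives a log2 fold change, a p-value and an adjusted p, with no test named. The submitters' processing notes name CASAVA and mm9. The coordinates are those of GRCm38, since 53499 of 54409 gene identifiers shared with GENCODE M21 (98.3%), including all 67 members, have the same chromosome, start and end. The aligner, the counter, the use of strand and poly(A) selection were not given in the sources used.

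The main test was edgeR 4.0.16 (R 4.3.3), quasi-likelihood with the robust option, TMM factors (between 0.971 and 1.01), filterByExpr with a minimum count of 10, 2 groups and no covariate, two-sided, adjusted over all 13932 genes kept. The code was tested on simulated data. Standard errors were derived from the fold change and the F statistic. Alternatives were library sizes alone, each library left out, DESeq2 1.42.0, limma-voom 3.58.1, no filter, a block on replicate number, DESeq2 size factors and tested members only for the sums, and those named in the closing section. Libraries of a group differed beyond sampling noise, with chi-square per degree of freedom of 12.5 for MK-8931 and 19.6 for control.

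Every member that passed the filter was named, with the 5 of highest summed count among the rest, and the 2 genes of smallest p from each pathway list. The members and all lists were chosen with earlier results of these data known. The stem-loop, poly(A) signals and shared 50-base stretches were searched in GENCODE M21 transcripts. CPM were computed here from the counts with TMM factors. The floor of 3 counts covers counting error only.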

Additional observations from a re-analysis of the deposited data

How the results depend on the processing

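Over all genes, the count of genes higher with MK-8931, 120, became 252 with DESeq2, 366 with no filter on low counts and 468 with the replicate block, and lay between 85 and 520 when each library was left out. The count of lower genes, 19, became 100 with DESeq2, 30 with limma-voom, 176 with no filter and 275 with the replicate block, and lay between 10 and 243 when each library was left out. Among the fits with a library left out, both counts were highest without the first control. The linker count of 1 became 0 with library sizes alone and 0 without the robust option, an alternative chosen after seeing the data, and lay between 0 and 1 when each library was left out. The core count was 0 in every setting run. The histone supply list went to 1 gene with the replicate block. The list of replication-independent histone genes had 1 gene with DESeq2, 1 with no filter and 1 with the replicate block, and between 0 and 1 when each library was left out, as did the S phase list. The summed linker ratio, -0.67, was 0.15 without Hist1h1c, also chosen after seeing the data. The core ratio, -0.327, was -0.301 with library sizes alone, and the cause was not tested.

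Of the 28 tested members, 17 kept their direction in all 10 alternatives and 11 did not, in 18 values of which 17 came from leaving out a library. With each library left out, the log2 fold change ran between -0.26 and 1.97 for Hist1h1b, -1.94 and 0.38 for Hist1h1e, -0.42 and 1.21 for Hist1h2ak, -0.13 and 0.15 for Hist1h2be, -2.30 and 0.66 for Hist1h2bh and -0.38 and 0.55 for Hist1h2bk. It ran between -0.37 and 0.55 for Hist1h3h, -1.53 and 0.50 for Hist1h3i, -0.47 and 0.30 for Hist1h4k, -1.98 and 2.28 for Hist2h2ac and -0.22 and 0.61 for Hist2h3c2. With no filter, Hist1h2bk was at -0.0088. Where 1 library is left in a group, it is assumed to vary like the other group.

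The labels do not pair libraries of the same replicate number, and with 2 pairs the deviations of same-numbered libraries from their group means correlated at 0.243 over 13646 genes. The replicate block changed the calls given above and none of the members' calls.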
